A study of Mus musculus with 12 samples.

Results

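The stefin A cluster of the mouse was described here through 9 genes, Stfa1, Stfa2, Stfa2l1, Stfa3, Csta2, Csta3, Cstdc4, Cstdc5 and Cstdc6, in RNA of cultured bone marrow cells. They are 9 of 55291 gene symbols in the count table, and all 9 were among the 15674 genes that passed the filter on low counts. They were chosen by their counts in the same libraries, which were higher in homozygous mice with and without short-chain fatty acids (SCFAs). The differences between genotypes are therefore given as a description without a test, and only the SCFA comparisons, which did not choose the genes, are tested.

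Stefins, or type 1 cystatins, are small proteins without a signal peptide that sit in the active-site cleft of papain-like cysteine proteases and block them reversibly. Their targets include the cysteine cathepsins, which degrade proteins in lysosomes and activate the serine proteases of granulocyte granules. Humans have a single stefin A gene, CSTA, whereas the mouse carries a row of stefin A-like genes on chromosome 16, whose transcripts are known from mouse neutrophils and other myeloid cells and from inflamed mouse skin.

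The study compared 4 groups of 3 libraries each from mice about 8 weeks old. Homozygous mice given SCFAs in the drinking water were set against control mice given SCFAs, and untreated homozygous mice against untreated control mice. Homozygous mice carried the genotype R26STAT3Cstopfl/fl CD4Cre, in which Cre under the CD4 promoter, active mainly in T cells, removes a stop cassette in front of STAT3C, a constantly active form of the transcription factor STAT3. The label of homozygous untreated 1 names R26 and the labels of the other 5 homozygous libraries read STAT3Cstopfl/fl CD4Cre; the genotype of the controls is labelled only as control. Marrow was cultured in alpha-MEM for about 24 hours, and RNA came from the non-adherent cells, labelled as progenitors. Libraries are named below by group and replicate number. The comparisons of genotype and of SCFA share libraries, so their values are given side by side.

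On the mouse genome build GRCm38 (mm10), the 9 protein-coding genes lie on chromosome 16 between 36156811 and 36455392, a span of 298.6 kb. Those on the plus strand are Stfa2l1 (36156811 to 36161948), Cstdc4 (36184212 to 36188111), Csta3 (36210403 to 36217788), Csta2 (36221562 to 36257447) and Stfa1 (36277148 to 36285371). On the minus strand follow Cstdc6 (36321665 to 36334332), Cstdc5 (36359382 to 36367570), Stfa2 (36403946 to 36408363) and Stfa3 (36450537 to 36455392). Their coding sequences, computed from GENCODE M21 transcripts, were 61.4% to 96.9% identical over the 36 pairs, with a median of 79.4%. The lowest value was that of Stfa1 and Stfa2l1. The coding sequence used for Stfa1 had 384 bases and those of the others 288 to 309. Bases without a partner counted as differences, which lowers the values of Stfa1. The closest pair was Csta2 and Cstdc4 at 96.9%, followed by Stfa2 and Stfa2l1 at 96.4% and Cstdc5 and Cstdc6 at 95.9%. The members of the first pair differed widely in level, as did those of the second. The 100 bases before the start of these 4 genes, and of Cstdc5, are therefore shown as the stretches upstream of near-copies with unequal levels. Sequences are from RefSeq on GRCm38.p6, 5′ to 3′ on the strand of the gene. Capitals mark a 12-base run that was the longest shared by at least 7 of the 8 upstream windows available.
Cstdc4: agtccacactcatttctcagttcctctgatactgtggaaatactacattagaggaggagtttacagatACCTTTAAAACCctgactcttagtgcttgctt
Csta2: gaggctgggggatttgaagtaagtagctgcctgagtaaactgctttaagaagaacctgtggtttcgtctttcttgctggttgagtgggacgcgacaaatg
Stfa2l1: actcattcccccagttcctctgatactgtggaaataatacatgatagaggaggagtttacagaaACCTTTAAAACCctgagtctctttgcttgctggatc
Stfa2: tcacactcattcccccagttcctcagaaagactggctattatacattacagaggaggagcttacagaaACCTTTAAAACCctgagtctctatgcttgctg
Cstdc5: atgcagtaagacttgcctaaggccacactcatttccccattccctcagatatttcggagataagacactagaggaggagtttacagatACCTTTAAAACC
These stretches are chr16:36184112-36184211 on the plus strand for Cstdc4, chr16:36221462-36221561 on the plus strand for Csta2, chr16:36156711-36156810 on the plus strand for Stfa2l1, chr16:36408364-36408463 on the minus strand for Stfa2 and chr16:36367571-36367670 on the minus strand for Cstdc5.

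The run ACCTTTAAAACC was sought in the 250 bases before the start. It was picked for being in at least 7 of the 8 member windows, so its count of 7 was set by that choice. Of 32851 windows, 11 held it (0.0335%), the 7 member windows included. The first base of the run lay at -36 to -32 relative to the start in Cstdc4, Stfa1, Stfa2, Stfa2l1 and Stfa3. It lay at -80 in Csta3 and at -12 in Cstdc5. The window of Csta2 did not hold the run, and Cstdc6 had no window. Csta2 has 3 annotated transcripts, and only 1 window per gene was searched, so any other start was not covered. Windows of 250 bases before to 50 bases after the start were searched on both strands for 3 motifs. The STAT motif TTCNNNGAA was in 1 of 8 member windows, that of Cstdc4 at -128, and in 8.3% of all windows. The C/EBP-like motif TTNCNNAA was in 6 of 8 member windows, and in 40.7% of all windows; no match overlapped the shared run. The PU.1-like motif GAGGAAGT was in 0 of 8 and in 3.2% of all windows. A match here is a description of letters, not of a bound site.

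Because the copies are close, reads can fit more than 1 gene. Of all 50-base stretches of the annotated transcripts, 100% were unique for Stfa3 and Csta3, 85.8% for Cstdc4, 84.1% for Stfa2, 79.6% for Csta2, 77.5% for Stfa1 and 75.4% for Stfa2l1. The shares were lower for Cstdc6, at 66.3%, and for Cstdc5, at 63.8%. At 100 bases they were 84.4% to 100% over the 9 genes. The read length is not given in the sources used here, so the single values of close copies are less certain than their sum. Without a stated strand setting, reads of Cstdc5 and of the antisense gene Gm15845, which overlaps its 5′ end and had at most 7 counts per library, cannot be told apart.

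Library totals were 16954355 to 20748995 counts, and levels are given as CPM, counts scaled to the library total with TMM factors. Control untreated 2 stood apart from its group on the second principal component, at -87.4 against -41.5 and -4.63. Stat3 had 363 ± 40.3 CPM in homozygous SCFA and 239.7 ± 13.9 in control SCFA libraries, and 294 ± 27.3 in homozygous untreated and 357 ± 82.0 in control untreated libraries (SD, n = 3); counts per gene do not separate the STAT3C transgene from the endogenous gene. Socs3 averaged 90.05 CPM in homozygous untreated and 142.9 CPM in control untreated libraries, a log2 fold change of -0.67 (edgeR adjusted p = 0.0355). Under SCFA it averaged 150.7 CPM in homozygous and 70.68 CPM in control libraries, a log2 fold change of 1.09 (edgeR adjusted p = 0.00181). Of the progenitor genes, Kit averaged 51.5 to 66.0 CPM and Cd34 48.7 to 81.4 CPM over the 4 groups. Late neutrophil genes summed to 41410 to 82390 CPM per library, far above the level of Kit and Cd34, and T cell markers to 76.4 to 153 CPM. Keratinocyte markers, of another cell type in which stefin A is known, summed to at most 12.65 CPM. SCFA libraries are dated day 30 and untreated libraries day 1 of month 3, so SCFA and date cannot be told apart. Whether the 3 libraries of a group are from separate mice is not stated, so p-values measure the spread between libraries, which may be technical.

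Summed over the 9 genes, stefin RNA was several times more abundant in homozygous mice. The sum was 822, 672.5 and 489 CPM in homozygous untreated 1, 2 and 3, against 231, 72.1 and 124 CPM in control untreated 1, 2 and 3. Under SCFA it was 944, 714 and 734 CPM in homozygous libraries and 215, 218 and 284.5 CPM in control libraries. In both comparisons every homozygous library lay above every control library. The means were 661 ± 167 CPM in homozygous untreated and 142 ± 80.8 CPM in control untreated libraries (SD, n = 3 each), a ratio of 4.64, and 797 ± 127 CPM in homozygous SCFA and 239 ± 39.3 CPM in control SCFA libraries, a ratio of 3.33. On the log2 scale these ratios were 2.22 and 1.74. Without control untreated 2 the first was 1.90. In bulk RNA, fewer cells of a type and less RNA per cell cannot be told apart.

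**Figure D1:**
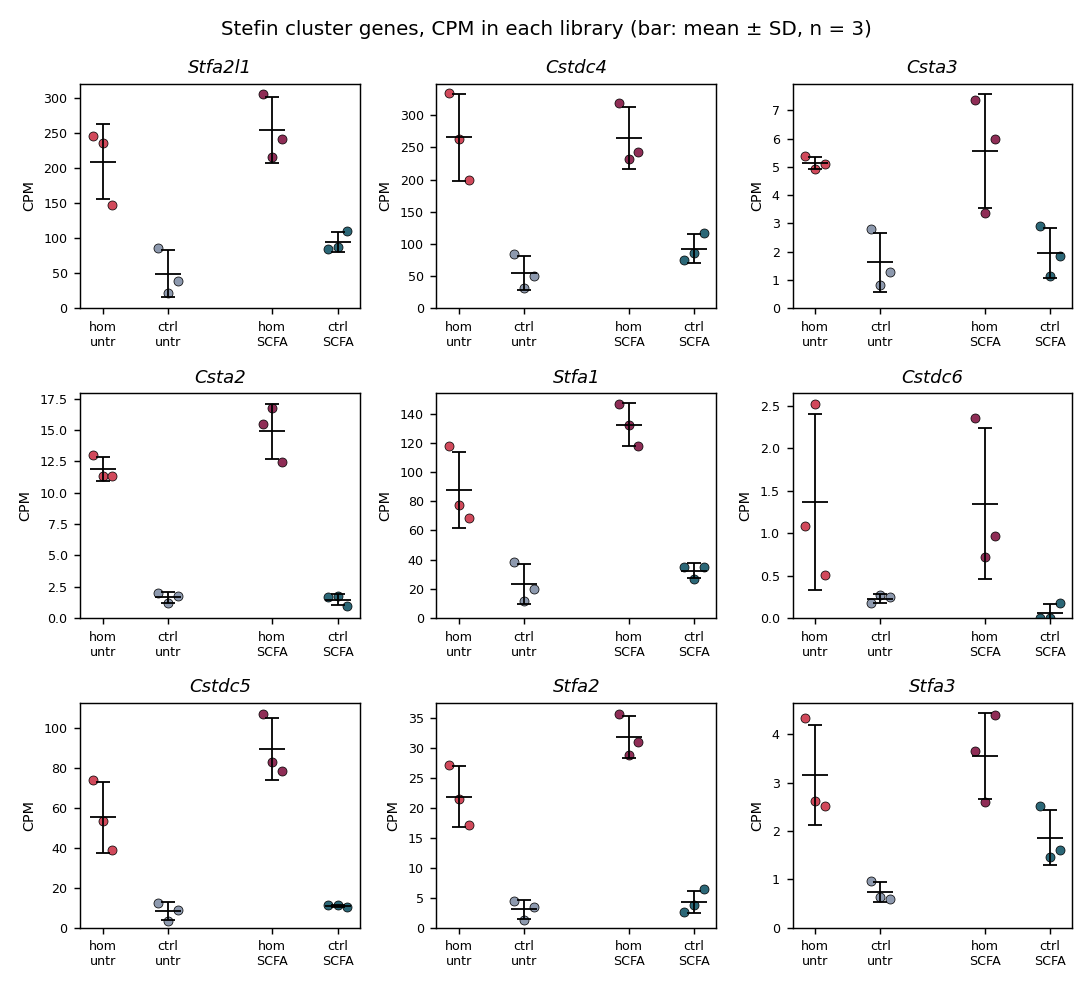
CPM of each of the 9 stefin genes in each library (points), with the group mean and SD (bars, n = 3), homozygous beside control without and with SCFA; each panel has its own linear axis from 0. In each panel the homozygous libraries lie above the control libraries of the same treatment, from Cstdc4 at up to 334 CPM to Cstdc6 at up to 2.52 CPM.

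Cstdc4 and Stfa2l1 carried most of the cluster's RNA. Cstdc4 had 334, 264 and 199 CPM in homozygous untreated and 83.6, 31.0 and 49.7 CPM in control untreated libraries, and 319, 231 and 243 CPM in homozygous SCFA and 74.4, 85.1 and 117 CPM in control SCFA libraries. Stfa2l1 had 245, 235 and 147 CPM in homozygous untreated and 86.0, 21.6 and 38.8 CPM in control untreated libraries. Under SCFA, Stfa2l1 had 305, 215 and 240.4 CPM in homozygous and 84.1, 87.1 and 110.4 CPM in control libraries. For both genes the controls reached at most about 117 CPM and no homozygous library was that low. The fitted log2 fold change of homozygous over control was 2.28 ± 0.30 for Cstdc4 and 2.10 ± 0.37 for Stfa2l1 without SCFA, and 1.52 ± 0.30 and 1.43 ± 0.36 under SCFA (SE from edgeR).

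Csta2, Cstdc5 and Stfa2 were less abundant and stood further apart between genotypes. Csta2 had 12.97, 11.3 and 11.3 CPM in homozygous untreated and 2.00, 1.18 and 1.76 CPM in control untreated libraries. Under SCFA it had 15.5, 16.7 and 12.4 CPM in homozygous and 1.67, 1.72 and 0.949 CPM in control libraries. The highest of the 6 control libraries, at 2.00 CPM, was below the lowest of the 6 homozygous ones, at 11.3 CPM.

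Cstdc5 had 74.0, 53.3 and 38.7 CPM in homozygous untreated and 12.4, 3.595 and 8.66 CPM in control untreated libraries. In SCFA mice, Cstdc5 had 107, 82.8 and 78.3 CPM in homozygous and 11.2, 11.4 and 10.4 CPM in control libraries. The 6 control libraries together spanned 3.595 to 12.4 CPM, below all 6 homozygous libraries.

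Stfa2 had 27.1, 21.5 and 17.1 CPM in homozygous untreated and 4.39, 1.29 and 3.52 CPM in control untreated libraries, and 35.8, 28.9 and 31.0 CPM in homozygous SCFA and 2.71, 3.83 and 6.41 CPM in control SCFA libraries. Here too the genotypes did not overlap. Log2 fold changes without SCFA were 2.85 ± 0.28 for Csta2, 2.75 ± 0.34 for Cstdc5 and 2.83 ± 0.37 for Stfa2, and under SCFA 3.35 ± 0.28, 3.02 ± 0.34 and 2.89 ± 0.37 (SE). As near-copies, Csta2 and Cstdc4 thus stood at fitted folds of 10.2 and 2.87 under SCFA, and Stfa2 and Stfa2l1 at 7.43 and 2.70. The 95% intervals under SCFA of the first pair were 6.69 to 15.5 and 1.85 to 4.45, and those of the second, 4.31 to 12.8 and 1.59 to 4.59, overlapped at their ends. Without SCFA the folds were 7.19 (4.75 to 10.9) for Csta2 and 4.85 (3.09 to 7.62) for Cstdc4, and 7.13 (4.09 to 12.4) for Stfa2 and 4.28 (2.49 to 7.38) for Stfa2l1, with overlapping intervals in each pair. The difference within a pair was not tested.

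Stfa1, the first stefin A of the numbering, was in between: 118, 77.8 and 68.4 CPM in homozygous untreated against 38.3, 11.8 and 19.7 CPM in control untreated libraries, and 147, 133 and 118 CPM in homozygous SCFA against 35.3, 26.6 and 35.2 CPM in control SCFA libraries. Its log2 fold changes were 1.92 ± 0.32 and 2.03 ± 0.32.

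The remaining 3 genes were rare. Csta3 had 5.37, 4.94 and 5.12 CPM in homozygous untreated and 2.80, 0.805 and 1.27 CPM in control untreated libraries, and 7.35, 3.37 and 5.99 CPM in homozygous SCFA and 2.90, 1.13 and 1.84 CPM in control SCFA libraries. Stfa3 had 4.34, 2.62 and 2.51 CPM in homozygous untreated and 0.970, 0.644 and 0.587 CPM in control untreated libraries, and 3.65, 2.61 and 4.39 CPM in homozygous SCFA and 2.52, 1.47 and 1.60 CPM in control SCFA libraries. The gap under SCFA was narrow for Stfa3, between 2.61 and 2.52 CPM. Cstdc6 had 20, 49 and 10 counts in homozygous untreated and 3, 5 and 5 counts in control untreated libraries, and 44, 14 and 17 counts in homozygous SCFA and 0, 0 and 3 counts in control SCFA libraries. Under SCFA the sums of 75 and 3 counts gave a ratio of 26.1 with an exact 95% interval of 8.61 to 129.6 that covers counting error only. The fitted log2 fold changes were 1.66 ± 0.47 for Csta3 and 2.10 ± 0.43 for Stfa3 without SCFA, and 1.5 ± 0.46 and 0.92 ± 0.40 under SCFA (SE from edgeR).

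Over the 9 genes, log2 fold changes of homozygous over control ranged from 1.66 to 2.85 without SCFA, with a median of 2.28, and from 0.92 for Stfa3 to 4.48 for Cstdc6 under SCFA, with a median of 2.03 (the value of Cstdc6 rests on 3 control counts and depends on the prior count, and Csta2 was next at 3.35); the medians over all genes tested were -0.04 and -0.02. The libraries of the 2 genotypes did not overlap for 9 of 9 genes in each comparison. Among all genes tested, homozygous libraries lay entirely above control libraries in 14.7% without SCFA and in 19.8% under SCFA; since the genes were picked for this difference, nothing is read from that contrast.

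**Figure D2:**
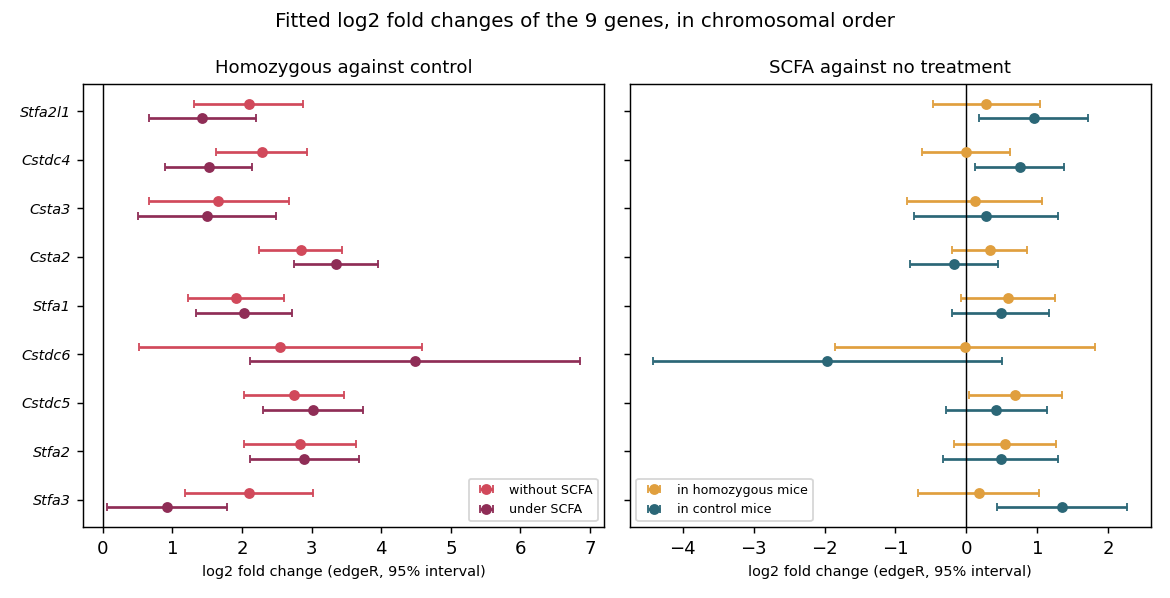
Fitted log2 fold changes (points) with 95% intervals (lines) of the 9 genes in chromosomal order, for homozygous over control without and with SCFA and for SCFA over untreated in each genotype. The differences between genotypes run from 0.92 to 4.48, while the SCFA differences run from -1.96 to 1.34 and lie above 0 for 7 of 9 genes in each genotype.

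Levels of different genes were compared per kilobase of the main coding transcript. In homozygous untreated libraries Cstdc4 averaged 641 and Stfa2l1 498 CPM per kb, followed by Stfa1 at 171, Cstdc5 at 89.4, Stfa2 at 46.5, Csta2 at 18.6, Csta3 at 17.5, Stfa3 at 7.66 and Cstdc6 at 3.54 CPM per kb. The order was the same in control untreated libraries, from 132 CPM per kb for Cstdc4 to 0.589 for Cstdc6, except that Csta3, at 5.52, was above Csta2, at 2.58. Cstdc4 is also annotated with a longer transcript that retains an intron; over all annotated exons its homozygous untreated level was 143 CPM per kb, below Stfa2l1.

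The make-up of the stefin counts also differed between genotypes, given here as a description from the comparison that chose the genes. Csta2, Cstdc5 and Stfa2, a trio chosen after the values were seen, made up 12.8% to 13.9% of the counts of the 9 genes in homozygous untreated and 8.16% to 11.2% in control untreated libraries. Under SCFA the trio made up 16.6% to 18.0% in homozygous and 6.26% to 7.75% in control libraries. Cstdc4 and Stfa2l1 together made up 62.5% to 66.2% in homozygous SCFA and 73.8% to 80.1% in control SCFA libraries, while without SCFA the genotypes overlapped, at 70.5% to 74.1% and 71.2% to 73.5%.

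**Figure D3:**
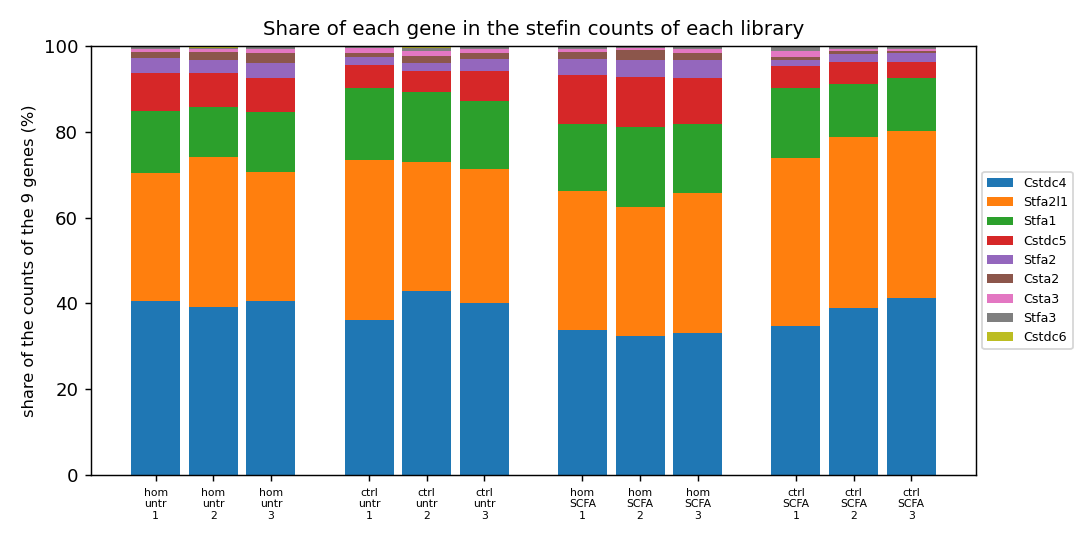
Share of each gene in the counts of the 9 stefin genes (stacked bars, %), one bar per library, with hom for homozygous, ctrl for control and untr for untreated. The bands of Cstdc5 and Stfa2 are wider in homozygous than in control libraries, and that of Csta2 is wider under SCFA and overlaps between genotypes without it. Under SCFA the 3 genes together stand at 16.6% to 18.0% against 6.26% to 7.75% for the 3 genes together.

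The next comparison asked whether SCFA changed stefin RNA in homozygous mice. No member passed the edgeR test at an adjusted p under 0.05: 0 of 9 were called, where 9.58% of all genes tested were called, 3.96% higher and 5.61% lower. DESeq2 called 0 and limma-voom 1, Cstdc5, which was also the 1 member with an unadjusted p under 0.05 in edgeR. Cstdc5 averaged 89.4 ± 15.6 CPM in homozygous SCFA and 55.4 ± 17.7 CPM in homozygous untreated libraries (SD, n = 3), a log2 fold change of 0.69 with a 95% interval of 0.04 to 1.35 (edgeR adjusted p = 0.177). Stfa1 and Stfa2 had log2 fold changes of 0.59 (-0.07 to 1.25, edgeR adjusted p = 0.26) and 0.54 (-0.17 to 1.26, edgeR adjusted p = 0.349). For these 3 genes every homozygous SCFA library lay above every homozygous untreated one, which held for 13.9% of all genes. Cstdc4 had a log2 fold change of -0.01 (-0.62 to 0.61, edgeR adjusted p = 0.994), with 264.5 ± 47.9 CPM in homozygous SCFA and 265.5 ± 67.7 CPM in homozygous untreated libraries. The other 5 genes were between -0.02 and 0.33, with overlapping libraries. Over the members, 7 of 9 fitted differences were above 0, with a median of 0.28, against -0.0 over all genes tested. The summed CPM had a ratio of 1.21, a log2 of 0.27, and its libraries overlapped. Cstdc5 passed the test without control untreated 2, with an adjusted p of 0.0384.

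In control mice, Stfa3 was the 1 gene of 9 that rose under SCFA, where 21.9% of all genes were called, 8.89% higher and 13% lower, and where the SCFA libraries of 17.7% of all genes lay entirely above the untreated ones, as those of Stfa3 did. Stfa3 averaged 1.87 ± 0.572 CPM in control SCFA and 0.734 ± 0.206 CPM in control untreated libraries (SD, n = 3), a log2 fold change of 1.34 (0.43 to 2.26, edgeR adjusted p = 0.0384) that rests on 12 to 53 counts per library. Its call was lost without homozygous SCFA 3, homozygous untreated 3, any 1 of the 3 control SCFA libraries, or control untreated 2 or 3, with edgeR adjusted p of 0.051 to 0.13. It was also lost with no filter on low counts, with limma-voom and with only the compared libraries fitted, and kept with DESeq2. Over the 9 members, 7 fitted differences were above 0, with a median of 0.48, against 0.04 over all genes tested. Stfa2l1 and Cstdc4, the abundant pair, had log2 fold changes of 0.95 (0.18 to 1.71, edgeR adjusted p = 0.0711) and 0.75 (0.12 to 1.38, edgeR adjusted p = 0.079), with unadjusted p under 0.05. Their libraries overlapped: control untreated 1, at 86.0 CPM of Stfa2l1 and 83.6 CPM of Cstdc4, lay within the range of the SCFA libraries and control untreated 2 and 3 lay below it. Without control untreated 1, 4 members were called, all higher: Stfa1, Stfa2l1, Stfa3 and Cstdc4. Csta2 had a log2 fold change of -0.18 (-0.80 to 0.45), and Cstdc6, at 3 counts in control SCFA and 13 in control untreated libraries, a ratio of 0.224 with an exact 95% counting interval of 0.0410 to 0.816. That interval leaves out the spread between libraries. The fitted log2 fold change of Cstdc6 was -1.96 (-4.41 to 0.5, edgeR adjusted p = 0.235) and did not pass. The summed CPM had a ratio of 1.68, a log2 of 0.75, that was 1.29 without control untreated 1 and 0.43 without control untreated 2.

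The difference of the SCFA effect between homozygous and control mice was tested as an interaction, built from the same libraries in which the genes were chosen. For 0 of 9 members did it pass edgeR's test, and 0 had an unadjusted p under 0.05, where 25.1% of all genes were called, 13.6% higher and 11.6% lower. DESeq2 also called 0 and limma-voom 2, Stfa2l1 and Cstdc4. The fitted differences ran from -1.18 for Stfa3 (-2.42 to 0.07, edgeR adjusted p = 0.15) to 1.93 for Cstdc6 (-1.09 to 4.96, edgeR adjusted p = 0.334), with -0.76 for Cstdc4 (-1.64 to 0.12, edgeR adjusted p = 0.189) and 0.50 for Csta2 (-0.31 to 1.32, edgeR adjusted p = 0.355). The 95% interval of each of the 9 reached beyond 1 log2 unit in at least 1 direction. Without control untreated 1, 2 members were called lower, Stfa2l1 with a log2 difference of -1.28 (edgeR adjusted p = 0.0117) and Cstdc4 with -1.12 (edgeR adjusted p = 0.0211). The mean CPM was highest in homozygous SCFA, then homozygous untreated, then control SCFA, and lowest in control untreated libraries for 6 of 9 genes. Cstdc4 and Cstdc6 were highest in homozygous untreated, and Csta2 and Cstdc6 lowest in control SCFA libraries. For the sum, neighbouring groups of the same genotype overlapped, and the libraries of homozygous untreated lay above those of control SCFA.

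The cysteine cathepsins, the proteases that stefins inhibit, were higher in homozygous mice in 2 of 10 genes without SCFA and 4 of 10 under SCFA, and lower in none with edgeR; among all genes 6.69% rose and 8.13% fell without SCFA, together 14.8%, and 8.89% rose and 8.47% fell under SCFA, together 17.4%. Ctsc, which activates neutrophil serine proteases, averaged 3048 ± 91.2 CPM in homozygous untreated and 1677 ± 110 CPM in control untreated libraries (log2 fold change 0.86, edgeR adjusted p = 7.1e-05), and 2792 ± 238 CPM in homozygous SCFA and 2069 ± 89.3 CPM in control SCFA libraries (0.43, edgeR adjusted p = 0.00724). Ctss, an enzyme of antigen presentation, rose by 0.79 without SCFA (edgeR adjusted p = 0.0108) and 0.61 under SCFA (edgeR adjusted p = 0.026). Under SCFA, Ctsl and Ctsz rose by 0.40 and 0.62 (edgeR adjusted p = 0.0185 and 0.00985). The median of the 10 genes was 0.15 without SCFA and 0.42 under SCFA, against -0.04 and -0.02 over all genes. The 2 calls without SCFA became 1 without homozygous untreated 1 or 2 or control untreated 3, and the 4 under SCFA became 2 without homozygous SCFA 3 or control SCFA 2 and 1 without control SCFA 3. Under SCFA, limma-voom called 5 higher and 2 lower, and without homozygous SCFA 1 edgeR called 2 higher and 1 lower. Under SCFA, Ctss was not called without any 1 of the 6 SCFA libraries.

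Between SCFA and untreated homozygous mice edgeR called 0 of 10 cathepsins, DESeq2 1 and limma-voom 2, and Ctsb was the 1 with an unadjusted p under 0.05 in edgeR. In control mice 3 were called, where Ctsc rose by 0.30 (edgeR adjusted p = 0.0383), Ctsz fell by 0.48 (edgeR adjusted p = 0.0317) and Ctsw, of cytotoxic lymphocytes, fell by 1.59 (edgeR adjusted p = 0.0272). Of these, 1 call was left without control SCFA 1 or control untreated 3, and 0 without control SCFA 2 or 3 or control untreated 2. In homozygous mice 1 was gained without control untreated 1 or 2. Ctsw was rare, with means of 1.115 CPM in control SCFA and 3.362 CPM in control untreated libraries. Stefin CPM per 1000 cathepsin CPM was 62.1 to 98.1 in homozygous untreated and 13.1 to 37.0 in control untreated libraries. It was 85.1 to 102 in homozygous SCFA and 32.4 to 41.5 in control SCFA libraries. The stefin genes were chosen for their genotype difference, so nothing is read from the gap of this ratio between genotypes.

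Outside the cluster, 3 of 22 other stefin and cystatin genes passed the filter. Cst7, an inhibitor of cathepsin C known from immune cells, was 45.7 ± 2.08 CPM in homozygous untreated and 29.2 ± 2.64 CPM in control untreated libraries (log2 fold change 0.65, edgeR adjusted p = 0.00602); under SCFA its log2 fold change of 0.21 did not pass. Cst3, the secreted cystatin C, was 387 ± 53.1 CPM in homozygous SCFA and 232 ± 21.7 CPM in control SCFA libraries (0.74, edgeR adjusted p = 0.00152). Without SCFA, Cst3 had 283.5 CPM in homozygous and 313.2 CPM in control libraries, a log2 fold change of -0.14 that did not pass. Cstb, the stefin B of most cells, averaged 153 ± 14.9 CPM in homozygous untreated and 131 ± 7.73 CPM in control untreated libraries and did not pass the test. Under SCFA in homozygous mice Cst3 rose by 0.45 (edgeR adjusted p = 0.0405) and Cst7 fell to 31.3 ± 2.08 CPM in homozygous SCFA libraries, against 45.7 ± 2.08 in homozygous untreated libraries (edgeR adjusted p = 0.016); both calls were lost without homozygous SCFA 3 or homozygous untreated 1 or 3, and that of Cst3 also without homozygous SCFA 2, homozygous untreated 2, control SCFA 1 or 2, or control untreated 3. In control mice Cst3 fell by 0.43 (edgeR adjusted p = 0.0295), a call lost without control SCFA 2 or 3 or control untreated 2 or 3. Csta1, the other stefin A gene next to the cluster, had 11 counts in all 12 libraries together, all in control untreated ones.

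Markers of the cells in which the cluster is known also moved with genotype. Of 20 late neutrophil genes, 6 rose and 3 fell in homozygous mice without SCFA, and 11 rose and 1 fell under SCFA, with medians of 0.15 and 0.41; among all genes 14.8% and 17.4% were called. In SCFA against untreated homozygous mice 3 rose and 0 fell, where 3.96% of all genes were called higher and 5.61% lower. In SCFA against untreated control mice 6 rose and 8 fell, where 8.89% of all genes were called higher and 13% lower. The calcium-binding S100a8 and S100a9, abundant in neutrophils, rose by 0.91 and 0.71 without SCFA (edgeR adjusted p = 0.0268 and 0.00646); under SCFA they had log2 fold changes of 0.07 and -0.01 that did not pass, with overlapping libraries. Without SCFA the granule gene Ngp had 0.26 (edgeR adjusted p = 0.084). The 9 calls without SCFA became 2 without homozygous untreated 1 or 2 and 3 without control untreated 2 or 3, and S100a8 was not called without any 1 of these 4. The 12 calls under SCFA became 7 without control SCFA 3. In SCFA against untreated control mice the 14 calls became 8, 3 and 7 without control SCFA 2, control SCFA 3 and control untreated 2, and in homozygous mice the 3 became 5, 1 of them lower, without control untreated 1 and 6, 2 of them lower, without control untreated 2.

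Late neutrophil genes summed to 62290 to 82390 CPM in homozygous untreated and 41410 to 59560 CPM in control untreated libraries, without overlap, and to 66550 to 76830 CPM in homozygous SCFA and 63060 to 67580 CPM in control SCFA libraries, with overlap. S100a8, the most abundant gene of the list, weighs most in these sums. Its mean was 37410 CPM in homozygous untreated and 19940 CPM in control untreated libraries, and these libraries overlapped. The sums therefore do not stand for the list as a whole. Stefin CPM per 1000 late neutrophil CPM was 7.85 to 9.97 in homozygous untreated and 1.74 to 3.87 in control untreated libraries, and 9.82 to 12.3 in homozygous SCFA and 3.31 to 4.21 in control SCFA libraries. The numerator of this ratio was chosen for its genotype difference, so nothing is read from its gap between genotypes.

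**Figure D4:**
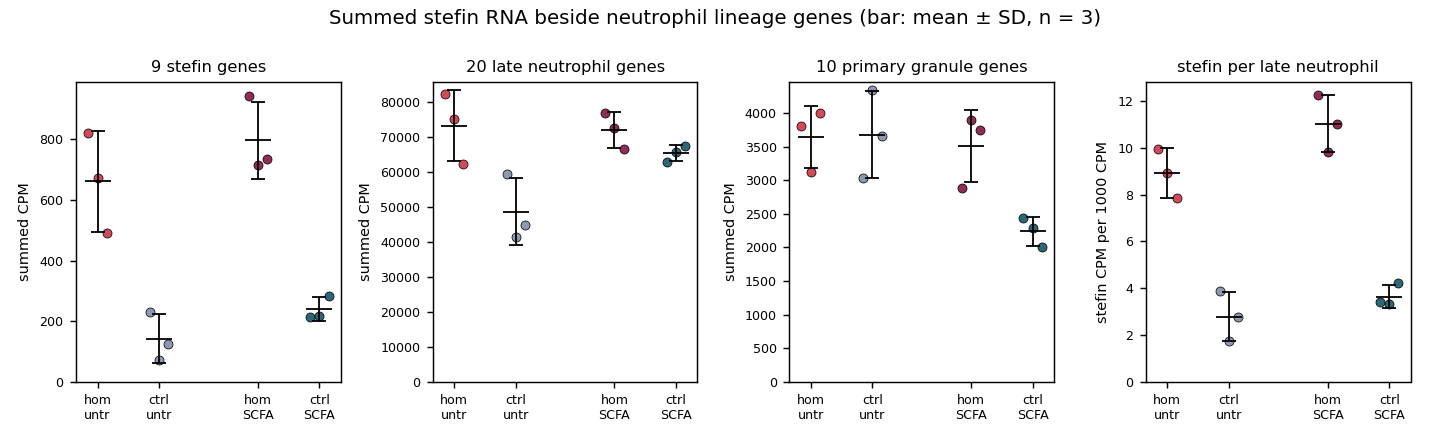
Summed CPM of the 9 stefin genes, of 20 late neutrophil genes and of 10 primary granule genes, and stefin CPM per 1000 late neutrophil CPM, in each library (points) with the group mean and SD (bars, n = 3). The ratio lies at 7.85 to 12.3 in homozygous libraries and at 1.74 to 4.21 in control libraries. The stefin genes were chosen for their genotype difference, and S100a8 weighs most in the late neutrophil sum.

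Of 10 primary granule genes, of earlier neutrophil precursors, 1 rose in homozygous mice without SCFA and 8 rose under SCFA, and 0 fell. Among all genes 14.8% and 17.4% were called. Under SCFA, Mpo, Elane and Prtn3 rose by 0.74, 0.73 and 0.97 (edgeR adjusted p = 0.0128, 0.00645 and 0.00204). In SCFA against untreated mice 0 rose and 6 fell in controls, and 0 rose and 1 fell in homozygous mice. There 21.9% and 9.58% of all genes were called. Mpo averaged 1065 CPM in control SCFA and 2005 CPM in control untreated libraries, and 1776 and 1757 CPM in homozygous ones. The 10 genes summed to 3123 to 4008 CPM in homozygous untreated and 3035 to 4341 CPM in control untreated libraries. Under SCFA they summed to 2889 to 3892 CPM in homozygous and 2006 to 2433 CPM in control libraries. Mpo lost its genotype call under SCFA without homozygous SCFA 3 or control SCFA 3. Of 14 monocyte markers, 7 rose and 2 fell in homozygous mice without SCFA, and 6 rose and 0 fell under SCFA. Ccr2, the receptor that lets monocytes leave the marrow, rose by 0.70 without SCFA (edgeR adjusted p = 0.00623). Under SCFA its 0.39 did not pass (edgeR adjusted p = 0.0728). Psap had -0.32 without SCFA (edgeR adjusted p = 0.193) and rose by 0.70 under SCFA (edgeR adjusted p = 0.0102). Ctss, also on this list, is given above. The 14 markers summed to 10920 to 11400 CPM in homozygous untreated and 8342 to 8479 CPM in control untreated libraries. Under SCFA they summed to 12370 to 13030 CPM in homozygous and 8955 to 9420 CPM in control libraries.

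Of 13 eosinophil, basophil and mast cell markers, 5 rose without SCFA and 4 rose and 1 fell under SCFA. Calls covered 14.8% of all genes without SCFA and 17.4% under SCFA. In the opposite direction, 13 of 14 B lineage genes fell without SCFA and 14 of 14 under SCFA, with sums of 703.5 to 753 CPM in homozygous untreated and 1992 to 2081 CPM in control untreated libraries, and 182 to 197 CPM in homozygous SCFA and 1976 to 2085 CPM in control SCFA libraries. All 14 also fell in SCFA against untreated homozygous mice, while in control mice 3 rose and 3 fell. The share of all genes called there was 9.58% in homozygous and 21.9% in control mice. T cell markers fell in 3 of 14 in homozygous against control mice without SCFA. Under SCFA 3 fell and 1 rose. Of all genes, 8.13% fell without SCFA, and 8.47% fell and 8.89% rose under SCFA. Whether these differences in marker RNA bear on the stefin difference was not tested.

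The genes next to the cluster were compared as neighbours on the chromosome. The members were chosen for being higher in homozygous mice and the neighbours were not, so nothing is read from the gap between them. Of 5 genes on each side, 8 passed the filter; Csta1 and Casr did not. To the left, Fam162a and Ccdc58, which encode mitochondrial proteins, rose by 0.81 and 0.70 without SCFA (edgeR adjusted p = 0.00204 and 0.0401), and neither was called under SCFA, with 0.10 and -0.54. Ccdc58 was no longer called without control SCFA 3, any 1 of the 3 homozygous untreated libraries, or control untreated 2 or 3, with edgeR adjusted p of up to 0.186. To the right, the peptide transporter gene Slc15a2 had 0.488, 0.874 and 0 CPM in homozygous untreated and 8.50, 5.96 and 4.41 CPM in control untreated libraries, and 7.35, 2.66 and 6.38 CPM in homozygous SCFA and 22.9, 18.6 and 27.1 CPM in control SCFA libraries. It fell by 3.78 without SCFA and by 2.06 under SCFA (edgeR adjusted p = 0.00141 and 0.00993). The second call was lost without homozygous SCFA 2 or control SCFA 3. Eaf2 fell by 4.46 under SCFA (edgeR adjusted p = 6.9e-05). The highest of the 8 neighbours was Fam162a in both comparisons. Cstdc3 and Gm7260, which lie between the members, had 3 counts each in all libraries.

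**Figure D5:**
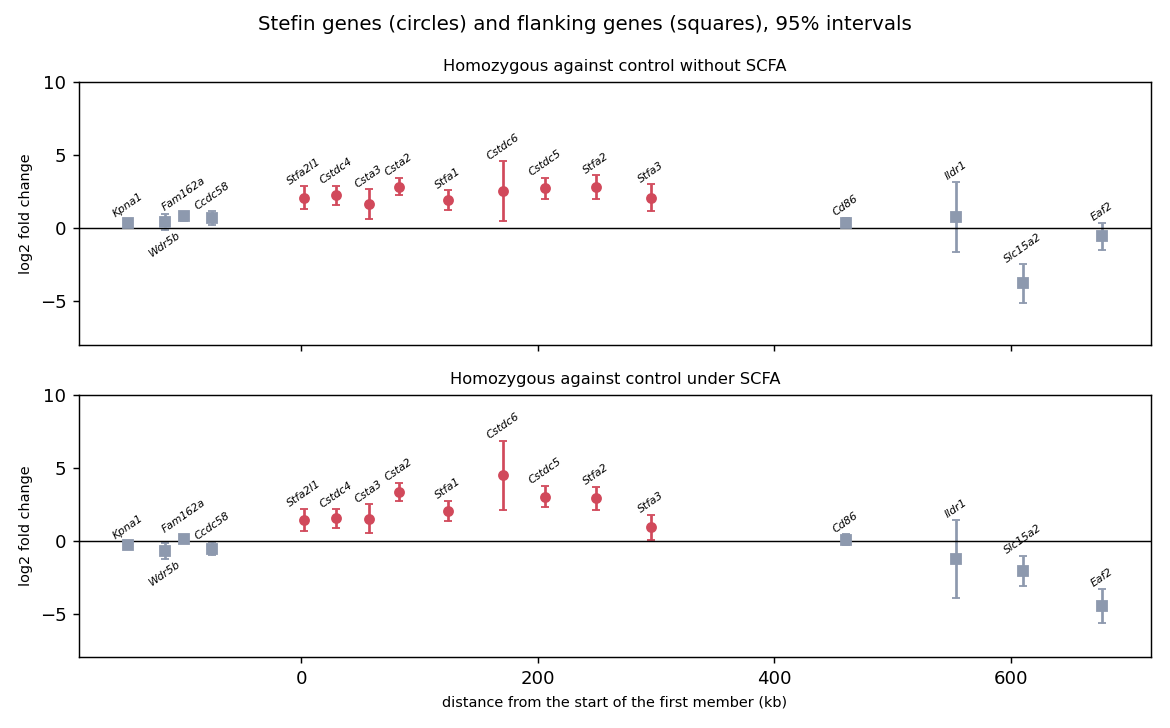
Fitted log2 fold changes of homozygous over control with 95% intervals, without SCFA (top) and under SCFA (bottom), for the 9 stefin genes (circles) and 8 flanking genes (squares), by distance in kb from the start of the first member. The 9 members, chosen for this difference, lie above 0. The flanking genes, not chosen for it, lie on either side of 0, down to -3.78 for Slc15a2 without SCFA and -4.46 for Eaf2 under SCFA.

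Across the 12 libraries the members varied together: the Pearson correlation of log2 CPM between members had a median of 0.90 over 36 pairs and a range of 0.54 to 0.98. All points share the genotype difference that chose the genes, and close copies may share reads. The genes most like the summed stefin CPM, among 9520 genes compared, were Clec4a3 (r = 0.98), Ctss (0.976), Gpr141 (0.966), Myof (0.964), Skap2 (0.963), Cpa3 (0.96), Sirpb1a (0.959), Acer3 (0.957), Ccr2 (0.955) and Clec4a1 (0.955), each over 12 libraries. Log2 fold changes of homozygous over control were 0.32 to 1.21 without SCFA and 0.28 to 0.89 under SCFA for these 10 genes. Genes picked for likeness to a sum chosen for its genotype difference will tend to share that difference. Nothing is read from these folds. Clec4a3 averaged 802 CPM in homozygous untreated and 467 CPM in control untreated libraries, and 899 CPM in homozygous SCFA and 589 CPM in control SCFA libraries.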

How the data were processed

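The members and gene lists were chosen with earlier results of these data known. Per the labels' protocols, a Qiagen RNeasy Plus Micro kit gave the RNA, and the Clontech low-input method for poly(A) RNA the libraries. The submitters' processing notes name STAR, featureCounts and mm10; for their versions, the annotation, the strand setting and reads that fit several genes, nothing is given in the sources used here. The authors deposited raw counts, whole numbers by symbol, for 55291 symbols, 22077 of them at 0 in every library.

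The test was edgeR's quasi-likelihood test (version 4.0.16, R 4.3.3) with TMM factors, after filterByExpr by group: 12 libraries in 1 fit with 4 group means, 15674 genes, Benjamini-Hochberg adjusted p under 0.05 as a call. No replicates were merged, since all pairs differed beyond sampling noise (chi-square/df 12.6 to 96.2). A count of 0 allows 3 counts; intervals cover counting error only. Log2 CPM for correlations used a prior count of 2. Genes could be named from the 9 members, cathepsins and cystatins that passed the filter and the 3 most abundant genes of each other list. Also open to naming were Stat3, Socs3, 5 genes on each side of the cluster, and the 10 most correlated genes above a mean CPM of 5. Not every gene open to naming is named. Kit, Cd34, Slc15a2 and the trio in the make-up were added after the values were seen. Older gene names of the members (Gm5483, Gm5416, 2010005H15Rik, BC117090 and BC100530 for Cstdc4, Csta3, Csta2, Cstdc6 and Cstdc5) were matched by gene ID to GENCODE M21. Upstream windows of 8 of 9 members were found in the RefSeq table. Protein sequences were not used here. The procedure was tested on simulated counts. Alternatives were RLE factors, no filter, DESeq2 1.42.0, limma-voom (limma 3.58.1), only the libraries compared, the replicate number as a block, and each library left out. Figures and tables were made in Python 3.11.15 (matplotlib 3.10.9, pandas 2.3.3, scipy 1.17.1).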

Additional observations from a re-analysis of the deposited data

Results flagged for a closer look

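Listed are the interactions that passed for Stat3 and for genes outside the cluster whose adjusted p is given in the results. Many other genes passed too and are not listed. The log2 SCFA difference in homozygous mice minus that in control mice was tested with edgeR. It was 0.88 for the cystatin Cst3 (edgeR adjusted p = 0.00482), 0.76 for Ctsz (0.017), 2.06 for Ctsw (0.0317) and -0.43 for Ctsc (0.0333). Among granule and neutrophil genes it was 0.93 for Mpo (0.0182), 0.84 for Elane (0.016), 0.98 for Prtn3 (0.0122) and -0.72 for S100a9 (0.0198). For neighbours of the cluster it was -0.71 for Fam162a (0.0175), -1.24 for Ccdc58 (0.00993) and -3.90 for Eaf2 (0.00238). For Stat3, Socs3 and Psap it was 0.88 (0.0111), 1.76 (0.00119) and 1.02 (0.0078). None of the 9 stefin genes passed this test, and 25.1% of all genes did.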

How the results depend on the processing

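The summed stefin log2 ratio under SCFA was 2.17 over Stfa1, Stfa2, Stfa3, Csta2 and Csta3 alone, against 1.74 for all 9. Leaving out 1 library gave 1.9 to 2.75 without SCFA, 1.6 to 1.88 under SCFA, 0.09 to 0.46 for SCFA in homozygous and 0.43 to 1.29 in control mice. Members called for SCFA in homozygous mice, 0 in the main analysis, were 2 with no filter, 1 with limma-voom and 1 with only the libraries compared, and 0 to 1 with a library left out. For SCFA in control mice the 1 call became 2 with no filter, 2 with DESeq2, 2 with limma-voom and 0 with only the libraries compared, and 0 to 4 with a library left out; the 2 were Stfa2l1 and Cstdc4, without Stfa3, with no filter and with limma-voom, and Stfa3 and Cstdc4 with DESeq2. Interaction calls became 2 with no filter and 2 with limma-voom, and 0 to 2 with a library left out.

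With the replicate number as a block, 3 members were called for SCFA in control mice, Stfa3, Stfa2l1 and Cstdc4. Same-numbered libraries had correlations of their deviations of -0.114 to 0.108 over 18 pairs, and differently numbered ones -0.127 to 0.123 over 36. With 3 libraries a group these values cannot settle whether the numbers pair the libraries, and no pairing is stated. Under the block Cstdc6 had 0.02 for SCFA in homozygous mice and Stfa2 -0.0 for the interaction.

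Cathepsins called for SCFA in homozygous mice were 1 with DESeq2 and 2 with limma-voom (0 to 1 with a library left out), in control mice 6 with limma-voom and 0 with only the libraries compared (0 to 4), by genotype without SCFA 1 with only the libraries compared (1 to 2), and under SCFA 7 with limma-voom, 2 of them lower (1 to 4). Late neutrophil calls for SCFA in homozygous mice were 6 with DESeq2, 2 of them lower, and 7 with limma-voom, 3 of them lower (2 to 6 with a library left out), in control mice 9 with only the libraries compared (3 to 17), by genotype without SCFA 2 with only the libraries compared (2 to 12), and under SCFA 7 to 13 with a library left out.

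Some values that did not pass the test changed sign. For SCFA in homozygous mice Csta3 had -0.01 with limma-voom, Cstdc4 0.01 with no filter and 0.01 with only the libraries compared, and Cstdc6 0.02 with no filter and 0.0 with only the libraries compared; with a library left out Stfa3 ranged from -0.01 to 0.47, Csta3 from -0.17 to 0.39, Cstdc4 from -0.19 to 0.2 and Cstdc6 from -0.72 to 0.77. For SCFA in control mice Csta2 ranged from -0.4 to 0.06 and Csta3 from -0.13 to 0.86. For the interaction Stfa1 had -0.12 with limma-voom, and with a library left out Stfa1 ranged from -0.38 to 0.47, Stfa2 from -0.2 to 0.47, Csta3 from -0.73 to 0.25 and Cstdc5 from -0.07 to 0.67. Over 961 refits of 54 single-gene results, 819 kept direction and call, 83 lost the call, 23 gained one and 36 changed sign. Where a call changed, the cause was not tested. Stfa3 and Cstdc6 had under 100 counts per library, and the 95% interval of Cstdc6 for SCFA in homozygous mice ran from -1.85 to 1.81.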
